A study of Mus musculus with 8 samples.

Results

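RNA of mouse embryos was compared between the 8-cell stage and the morula stage in the absence of any drug. This comparison rests on 4 libraries, 2 of control 8-cell embryos and 2 of control morulae, out of 8 libraries in the series. The genes compared were those that could be assigned in the tables of both stages and that had a mean of at least 1 FPKM over these 4 libraries, 8572 genes of 20577 joined over both tables (FPKM, the fragments of a gene divided by its exon length and by the total counted in the library). Of them 6832 were protein-coding. The embryos were wild type, came from superovulated 7-week-old ICR females and grew in KSOM medium. They were collected 70 h (8-cell) or 78 h (morula) after injection of hCG, the hormone that triggers ovulation. The other 4 libraries came from embryos of the same 2 stages given 100 μM trimetazidine (TMZ), an inhibitor of fatty acid β-oxidation. The study's methods give the start of treatment as the 2-cell stage in one sentence and as the zygote stage in another. The TMZ libraries serve here as a second set of samples labelled with the same 2 stages. The study reports arrest and delayed development under TMZ, so the same change of stage cannot be assumed in them. How many embryos went into a library is not given in the sources used here. The study calls the 2 replicates of a group biologically independent, while its methods name more replicates. Neither statement says whether they came from separate collections, so p-values measure the spread between these libraries, which may be technical.

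Between these stages the mouse embryo compacts. Its cells flatten against each other, the outer cells acquire an apical side, and the first lineage choice begins: outer cells become trophectoderm, an epithelium that later pumps fluid into the blastocyst cavity, and inner cells become the inner cell mass. The factor Cdx2 and the keratin pair Krt8 and Krt18 mark trophectoderm, while Pou5f1 and Nanog mark pluripotent cells. RNA that the oocyte stored is by then largely cleared, and the embryo turns from pyruvate towards glucose as a fuel.

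The deposited tables carry no gene names. Names were inferred from the length of each entry and its place in the order of Ensembl identifiers, so every name below is an assignment. The libraries held 32489992 to 40850061 fragments at the 8-cell stage and 33033251 to 33552381 at the morula stage, and 8182 to 8779 joined genes reached 1 FPKM in each. Control values below are FPKM after joint scaling of the 4 libraries by their median ratio, which divided them by 0.968 to 1.10. TMZ values were divided by factors taken over all 8 libraries. On that scale the factor of control 8-cell replicate 1 is 1.19 in place of 1.10, so control and TMZ values are not on exactly the same scale. All these values are shares of a library, and more RNA per cell and more cells with that RNA cannot be told apart in them. The 2 stages were deposited in separate tables, and each FPKM was divided by its own library's total. Any batch that goes with the stage cannot be told apart from the stage. The embryonic origin was checked with 4 genes of pluripotent and early embryonic cells: Pou5f1 stood at 11.2 to 42.6, Dppa4 at 384 to 499, Sall4 at 43.2 to 68.6 and Tfap2c at 19.4 to 26. Of 28 genes of cumulus and granulosa cells, which surround the oocyte, 8 were joined and 7 of these lay under the filter. The exception was Amhr2, with 14.2 and 17.8 at the 8-cell stage and 7.53 and 13.3 at the morula stage. The summed deposited FPKM of the 8 was 14 to 20.03 in 8-cell and 7.93 to 13.7 in morula controls, and Tnfaip6 was at 0 in all 4.

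A gene was called when its Benjamini-Hochberg adjusted p-value was under 0.05 in a limma-trend fit on log2(scaled FPKM + 1). This gave 81 genes higher in the morula, 0.945% of those tested, and 92 lower, 1.07%. A looser threshold, an unadjusted p-value under 0.05 with a log2 fold change beyond 0.5, was passed by 955 genes upwards (11.1%) and by 1052 downwards (12.3%). With FPKM as deposited, without joint scaling, it was passed by 722 and 1200. List counts below stand against these shares: 0.945% and 1.07% of all genes called, 11.1% and 12.3% past the looser threshold. Single libraries weighed on the number of calls: it was 36 and 18 without 8-cell replicate 2, 32 and 26 without morula replicate 1 and 30 and 20 without morula replicate 2, and with either of the last 2 left out 642 and 697 or 524 and 655 genes passed the looser threshold. All 173 called genes had 2 morula libraries on one side of both 8-cell libraries, as had 55.4% of all genes tested. The smallest log2 change called in this fit was 1.02 and the median over all genes was -0.0038. For a single gene, 2 against 2 libraries allow no two-sided exact permutation p under 0.333.

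**Figure D1:**
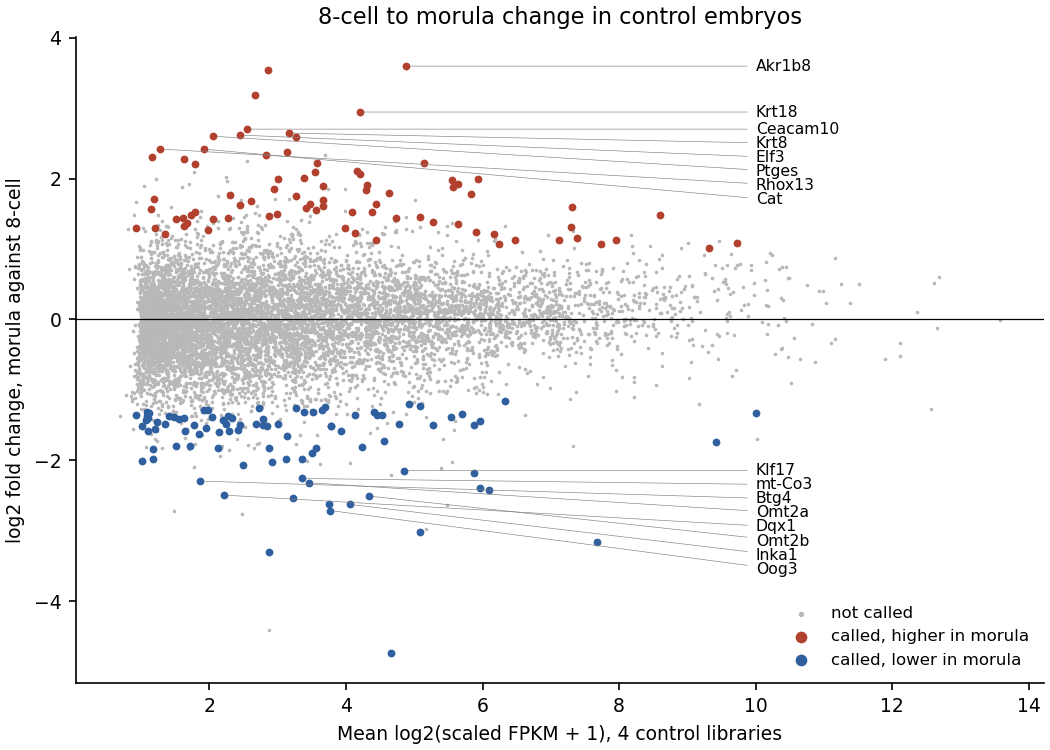
Log2 fold change of morula against 8-cell control embryos (vertical axis) against the mean log2(scaled FPKM + 1) over the 4 control libraries (horizontal axis), 1 point per gene. Red points are the 81 genes called higher and blue points the 92 called lower in the morula, and the named genes are the 8 largest rises and 8 largest falls among named protein-coding genes reaching 5 FPKM.

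The largest rises included both keratins of the first embryonic epithelium. Krt18, the type I keratin of simple epithelia (GRCm39, chr15:101936615-101940462), stood at 7.24 and 4.33 in the 8-cell libraries and at 60.3 and 41.5 in the morula libraries, 8.80-fold higher (log2 fold change 2.95, SE 0.30, adjusted p = 0.0119). Krt8, its type II partner on the same chromosome (chr15:101905133-101912917), stood at 1.87 and 3.46 against 20.1 and 22.8, 8.05-fold higher (log2 2.65, SE 0.28, adjusted p = 0.0119). For both keratins the lower morula library lay far above the higher 8-cell library. The rule that chose the largest rises and falls required stages without overlap. Of the 31-base stretches of Krt8 exons 63.9% occur elsewhere in GRCm39, against 12.1% for Krt18, and reads from such copies could not be separated. Elf3, an Ets factor of epithelia (chr1:135181306-135188999), rose from 1.15 and 1.26 to 16 and 9.76 (log2 2.62, SE 0.29). Every one of its 31-base stretches is unique in the genome.

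The rest of the largest rises were enzymes, a cell surface gene and a homeobox gene. Akr1b8, an aldo-keto reductase (chr6:34331054-34345409), had the largest rise of the called protein-coding genes on the log2(FPKM + 1) scale, from 4.84 and 11.4 to 111 and 93.3, 12.6-fold (log2 3.60, SE 0.35). Ptges, which makes prostaglandin E2 (chr2:30779483-30820196), stood at 0.670 and 0.703 and then at 11.8 and 7.16, 13.8-fold higher. Cat, the peroxisomal enzyme catalase (chr2:103284194-103316185), stood at 1.06 and 0.312 and then at 8.02 and 7.56, 11.4-fold higher. In all 3 the stages were separated by more than the spread within either, which the rule that chose them favoured. Ceacam10, of the carcinoembryonic antigen family (chr7:24476598-24484082), rose from 1.43 and 1.15 to 16.6 and 11.6. Rhox13, a homeobox gene of the X chromosome (chrX:37210052-37218844), stood at 0.102 and 0 in the 8-cell libraries, which is 2 fragments and none, and at 2.36 and 8.41 in the morulae (log2 2.42, SE 0.45, adjusted p = 0.0491). Its fitted change depends on the pseudocount, and no fold is given. The entry named Rhox13 had a recovered length of 438 bases against 920 in the reference (posterior 0.984). Its fragment counts depend on that length. With 1 library left out at a time Rhox13 was called only without morula replicate 1 (highest adjusted p = 0.114 by limma), while the other 7 of these rises stayed called in all 4 fits.

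The largest falls were led by genes of the oocyte. Oog3, an oocyte-expressed gene (chr4:143884127-143889233), stood at 28.7 and 39.7 at the 8-cell stage and at 2.46 and 7.14 at the morula stage, 7.13-fold lower (log2 -2.71, SE 0.41, adjusted p = 0.0338). The neighbours Omt2a (chr9:78219254-78222078) and Omt2b (chr9:78234871-78236902), oocyte transcripts of similar sequence, fell together. Omt2b fell from 57.3 and 38.7 to 6.31 and 8.81, and Omt2a from 21.2 and 26.4 to 3.03 and 5.07. Of the 31-base stretches of Omt2b 55.6% occur elsewhere in the genome, and of those of Omt2a 55.1%. How many the pair shares was not counted. Btg4, the adaptor that brings the CCR4-NOT deadenylase to maternal mRNA (chr9:50972201-51031175), stood at 6.46 and 7.63 and then at 0.489 and 0.797, 11-fold lower (log2 -2.29, SE 0.25, adjusted p = 0.0119). None of its stretches occurs elsewhere. Without 8-cell replicate 2, Oog3 and Omt2a were not called (adjusted p = 0.0815 and 0.0602 by limma), and Omt2b and Btg4 stayed called with each library left out.

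The other largest falls were in a transcription factor, a kinase inhibitor, a helicase and a mitochondrial gene. Klf17, a Krüppel-like factor of the early embryo (chr4:117615033-117622845), stood at 51.8 and 68.3 against 12.2 and 13.1, 4.74-fold lower. Inka1, an inhibitor of the kinase Pak4 (chr9:107861224-107863123), stood at 40.8 and 39.8 against 6.98 and 4.61. Dqx1, of the DEAQ-box helicase family (chr6:83034825-83044299), stood at 10.2 and 9.75 against 0.768 and 1.16, 10.4-fold lower. In these 3 genes the 8-cell libraries were close to each other and well above both morulae, and the rule that chose them required no overlap. The fourth was mt-Co3, a cytochrome c oxidase subunit of the mitochondrial genome (chrM:8607-9390), at 14.1 and 32 against 4.55 and 2.94 (log2 -2.26, SE 0.39, adjusted p = 0.0429). All of its 31-base stretches occur elsewhere in the genome. It was called only without 8-cell replicate 1 when 1 library was left out (highest adjusted p = 0.122 by limma), and the other 3 were called in all 4 such fits.

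**Figure D2:**
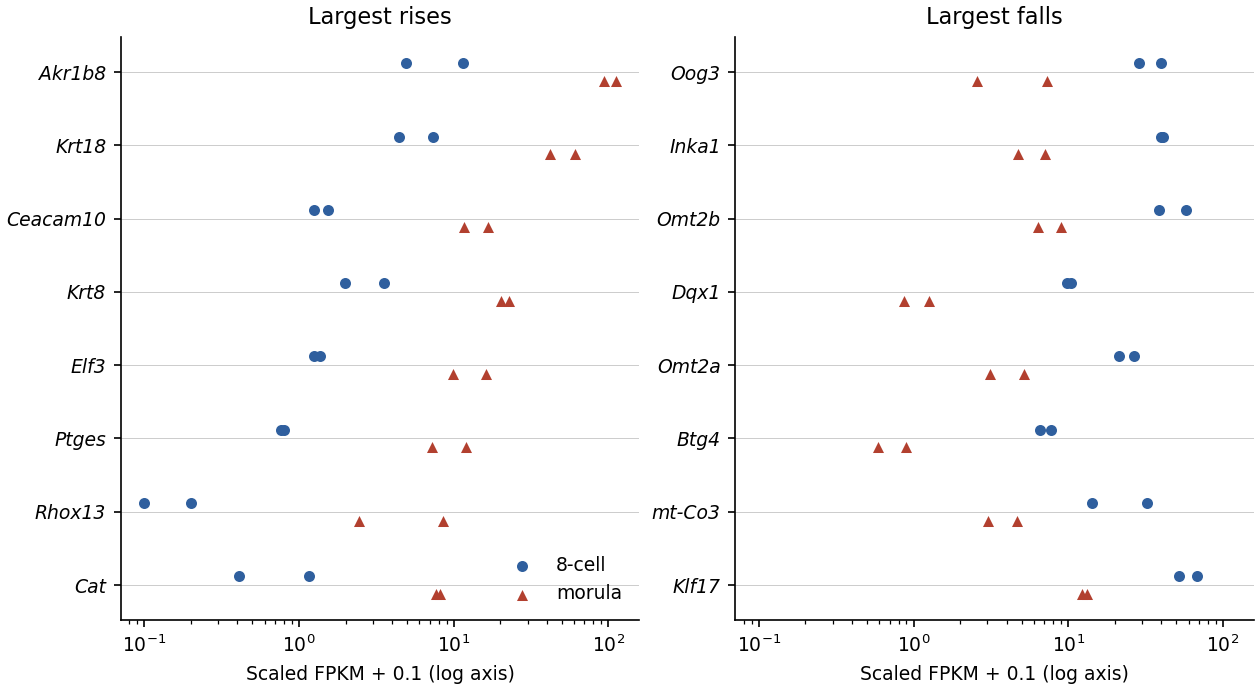
Scaled FPKM + 0.1 on a log axis for the 8 largest rises (left) and the 8 largest falls (right), with 1 blue circle per control 8-cell library and 1 red triangle per control morula library. In each of the 16 genes the 2 morula libraries lie on one side of both 8-cell libraries, which the rule that chose these genes required.

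Promoters of 4 rising and 2 falling genes are shown as examples that hold one of 3 short elements. These were GGAATG, bound by TEAD factors, AGATAA, bound by GATA factors, and GCCNNNGGC, bound by TFAP2 factors, searched for on either strand. Other called genes also hold one, among them Akr1b8, Ptges and Rrn3, and others hold none, among them Cat, Btg4, Klf17 and Omt2a. Each line gives the 250 bases before the start, 5′ to 3′ on the gene's strand, from RefSeq on GRCm38.p6, with the element in capitals. The windows are, in order, chr15:102027966-102028215 on the plus strand, chr15:102004343-102004592 on the minus strand, chr1:135258473-135258722 on the minus strand, chr5:147307250-147307499 on the minus strand, chr9:78327780-78328029 on the plus strand and chr4:144162652-144162901 on the minus strand.
Krt18: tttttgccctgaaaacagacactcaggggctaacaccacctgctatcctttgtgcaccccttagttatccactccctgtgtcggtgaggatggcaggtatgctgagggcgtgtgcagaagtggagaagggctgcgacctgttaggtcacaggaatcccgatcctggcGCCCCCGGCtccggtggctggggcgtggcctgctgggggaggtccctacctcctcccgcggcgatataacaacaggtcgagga
Krt8: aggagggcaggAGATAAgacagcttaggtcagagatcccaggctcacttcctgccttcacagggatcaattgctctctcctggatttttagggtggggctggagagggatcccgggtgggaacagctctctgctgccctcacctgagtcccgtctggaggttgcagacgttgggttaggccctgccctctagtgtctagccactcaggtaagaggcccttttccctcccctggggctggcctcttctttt
Elf3: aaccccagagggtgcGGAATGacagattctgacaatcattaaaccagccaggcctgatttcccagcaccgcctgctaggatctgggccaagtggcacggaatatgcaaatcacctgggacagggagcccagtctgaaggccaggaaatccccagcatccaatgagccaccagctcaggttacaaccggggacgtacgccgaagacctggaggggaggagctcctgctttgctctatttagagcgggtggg
Cdx2: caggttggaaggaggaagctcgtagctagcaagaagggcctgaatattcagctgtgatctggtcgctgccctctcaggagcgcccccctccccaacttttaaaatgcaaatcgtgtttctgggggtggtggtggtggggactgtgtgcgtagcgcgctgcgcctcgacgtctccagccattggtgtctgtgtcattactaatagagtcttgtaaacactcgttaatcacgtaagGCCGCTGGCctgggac
Omt2b: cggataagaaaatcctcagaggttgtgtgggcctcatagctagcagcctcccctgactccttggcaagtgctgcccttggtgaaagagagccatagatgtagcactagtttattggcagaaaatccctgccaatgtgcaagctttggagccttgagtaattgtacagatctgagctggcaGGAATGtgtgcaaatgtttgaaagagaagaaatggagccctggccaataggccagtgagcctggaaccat
Oog3: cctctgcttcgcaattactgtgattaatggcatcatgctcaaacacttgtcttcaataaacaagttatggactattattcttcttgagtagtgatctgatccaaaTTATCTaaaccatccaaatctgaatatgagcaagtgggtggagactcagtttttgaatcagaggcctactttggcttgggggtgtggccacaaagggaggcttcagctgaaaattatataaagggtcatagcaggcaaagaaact

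Rising and falling genes both held these letters. RefSeq windows of 300 bases (250 before to 50 after a start) were matched for 39 of the 81 called risers (50 windows), for 34 of the 92 fallers (41 windows) and for 5575 of the genes tested (6903 windows), by symbol. GGAATG was found in 12% of riser windows, 14.6% of faller windows and 11.9% of all windows. AGATAA was found in 14%, 9.76% and 6.40%, and GCCNNNGGC in 24%, 14.6% and 23.6%. The riser share of AGATAA is 7 of 50 windows, and several windows belong to the same gene. These shares are descriptions, and a match is not a bound site.

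Trophectoderm genes were represented by 20 tested genes of a list of 35. Of them 4 were called, all higher in the morula, and the looser threshold was passed by 6 upwards and 3 downwards, with a median log2 change of 0.34. Without 8-cell replicate 2 or morula replicate 1 the called were 2, and with 1 library left out 4 to 7 passed upwards and 0 to 3 downwards. Beside the keratins these were Cdx2 and Dab2. Cdx2, the homeobox factor that trophectoderm needs, stood at 1.01 and 0.722 in the 8-cell libraries and at 4.07 and 4.03 in the morulae (log2 1.44, SE 0.24, adjusted p = 0.0407). Dab2, an adaptor of endocytosis in extraembryonic cells, stood at 12.9 and 11.8 and then at 54.8 and 37.6 (log2 1.80, adjusted p = 0.0269). Cdx2 had log2 changes of 1.33 to 1.54 with any 1 library left out but was then not called (adjusted p = 0.0510 to 0.138 by limma), and Dab2 was not called without 8-cell replicate 2 or morula replicate 1 (highest adjusted p = 0.0801). The other factors of the lineage were not called. Gata3 had 1.15 and 1.70 against 4.02 and 2.21 (log2 0.73, SE 0.30, adjusted p = 0.197), Tfap2c had 19.4 and 21.6 against 25.1 and 26 (log2 0.31), and Yap1, the coactivator that partners TEAD factors, had 1.99 and 1.96 against 1.20 and 1.48 (log2 -0.35). Eomes, a T-box factor of later trophectoderm, lay under the filter at 0.038 to 0.245, and Tead4 was not assigned in both tables and was not analysed here.

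Pluripotency and inner cell mass genes moved both ways. Of 24 tested genes out of 33, 2 were called higher and 1, Klf17, lower, while 8 and 4 passed the looser threshold, with a median of 0.19 (-0.06 without 8-cell replicate 1 and 0.07 without morula replicate 2). Tfcp2l1, a factor of naive pluripotent cells, stood at 1.37 and 2.03 and then at 7.62 and 8.73 (log2 1.77, adjusted p = 0.0302). Utf1, a chromatin-associated factor of pluripotent cells, stood at 29.5 and 30.6 and then at 70.8 and 86.8 (log2 1.35, adjusted p = 0.0339). In both the 2 libraries of a stage lay close together. With any 1 library left out neither was called (adjusted p = 0.0510 to 0.121 for Tfcp2l1 and 0.0527 to 0.134 for Utf1 by limma). Pou5f1 had 17.8 and 11.2 against 31.2 and 42.6 and was not called (log2 1.31, SE 0.29, adjusted p = 0.0602). Nanog had 27.9 and 17.1 against 26.1 and 27.6 (log2 0.28, SE 0.27), within the spread of the 8-cell libraries. Klf4 had 15.2 and 14.6 against 11.2 and 5.72 (log2 -0.81, adjusted p = 0.181), and Gata6, the primitive endoderm factor, had 8.72 and 5.62 against 13.7 and 10.6 (log2 0.70, adjusted p = 0.188). Cripto (Tdgf1), a Nodal co-receptor, had 22.2 and 31.6 against 25.4 and 35.9. Sox2 was under the filter, at 0 in 3 of the 4 libraries and 0.122 in the other. Dppa3, a maternal and pluripotency gene, was the most abundant joined gene in 3 of the 4 libraries, at 9750 and 15300 against 11195 and 13289, so its stages overlapped.

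Genes of compaction and of cavity formation were not called in either direction. Of 31 tested compaction and polarity genes out of 44 none was called by limma-trend, and the median was 0.27. The looser threshold was passed by 4 upwards (12.9%) and 1 downwards (3.23%), against 11.1% and 12.3% of all genes tested. With 1 library left out 2 to 5 passed upwards, with 2 without morula replicate 1, and the median was 0.15 without 8-cell replicate 2. A voom fit of the recovered fragments called 1, downwards. Pard6b, an apical polarity protein, had 3.37 and 1.89 against 6.41 and 6.02 (log2 1.02, adjusted p = 0.0986). Cdh1, the cadherin of compaction, had 8.09 and 5.46 against 9.95 and 8.35 (log2 0.40), and Prkci, the apical kinase, had 2.27 and 2.85 against 1.62 and 2.30 (log2 -0.27). Ezr, the protein of apical microvilli, lay under the filter at 0.21 to 1.37. Of 17 tested cavitation genes out of 31 none was called, 5 passed the looser threshold upwards and 2 downwards (median 0.19), and voom called 1 each way. The upward count was 2 without morula replicate 2 and 3 without 8-cell replicate 1 or morula replicate 1. Cldn4, a tight junction claudin, had 76.9 and 85.0 against 157 and 162 (log2 0.97, SE 0.19, adjusted p = 0.0534). Aqp3, a water channel, had 19.8 and 13.2 against 50.5 and 32.4 (log2 1.27, adjusted p = 0.0706). In both the stages did not overlap, as in 55.4% of all genes tested, and neither was called. Atp1b1, a subunit of the sodium pump, had 2.03 and 2.83 against 3.10 and 3.68, and Tjp1 had 2.27 and 3.01 against 2.45 and 1.52.

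Oocyte and maternal genes held more called falls than any other list. Of 59 genes 53 were joined and 29 passed the filter, which keeps a gene that is abundant at either stage. Among the 29, 7 were called lower and 1 higher, and 18 passed the looser threshold downwards against 2 upwards, with a median log2 change of -0.93. The median was -0.45 over all 53 without the filter, where 22 passed downwards, 1 upwards and 0 were called by limma-trend. It was -1.55 with a pseudocount of 0.1 and -1.65 by voom. Leaving out 1 library at a time left 14 to 18 past the looser threshold downwards and 3 to 8 called lower, with 3 without 8-cell replicate 2 and 4 without either morula. The voom fit called 8 lower and 1 higher, against 97 and 129 of all 8572 genes. Beside those named above, Fbxw24, Fbxw15 and Accsl were called lower. These are named outside the rule for named genes, after their values were seen. Fbxw24, of an F-box family expressed in oocytes, had 14.8 and 11 against 2.94 and 2.84. The member called higher was Khdc3, a component of the subcortical maternal complex, also named after its values were seen. It stood at 26.5 and 33.3 and then at 110 and 99 (log2 1.78, SE 0.21, adjusted p = 0.0172). Genes of the embryo's first wave of transcription at the 2-cell stage were mixed: of 19 tested out of 45, 1 was called, 5 passed the looser threshold each way and the median was -0.24. The called gene was Pramel5, of the Prame family, at 33.5 and 26.1 against 155 and 95.0 (log2 2.00, adjusted p = 0.0273), with 52.7% of its 31-base stretches elsewhere in the genome. It was not called without 8-cell replicate 2 or morula replicate 1 (highest adjusted p = 0.0677 by limma), and the list's median was 0.04 without 8-cell replicate 1 and 0.08 without morula replicate 2, and 0.46 over the 9 members with at least 5 FPKM.

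**Figure D3:**
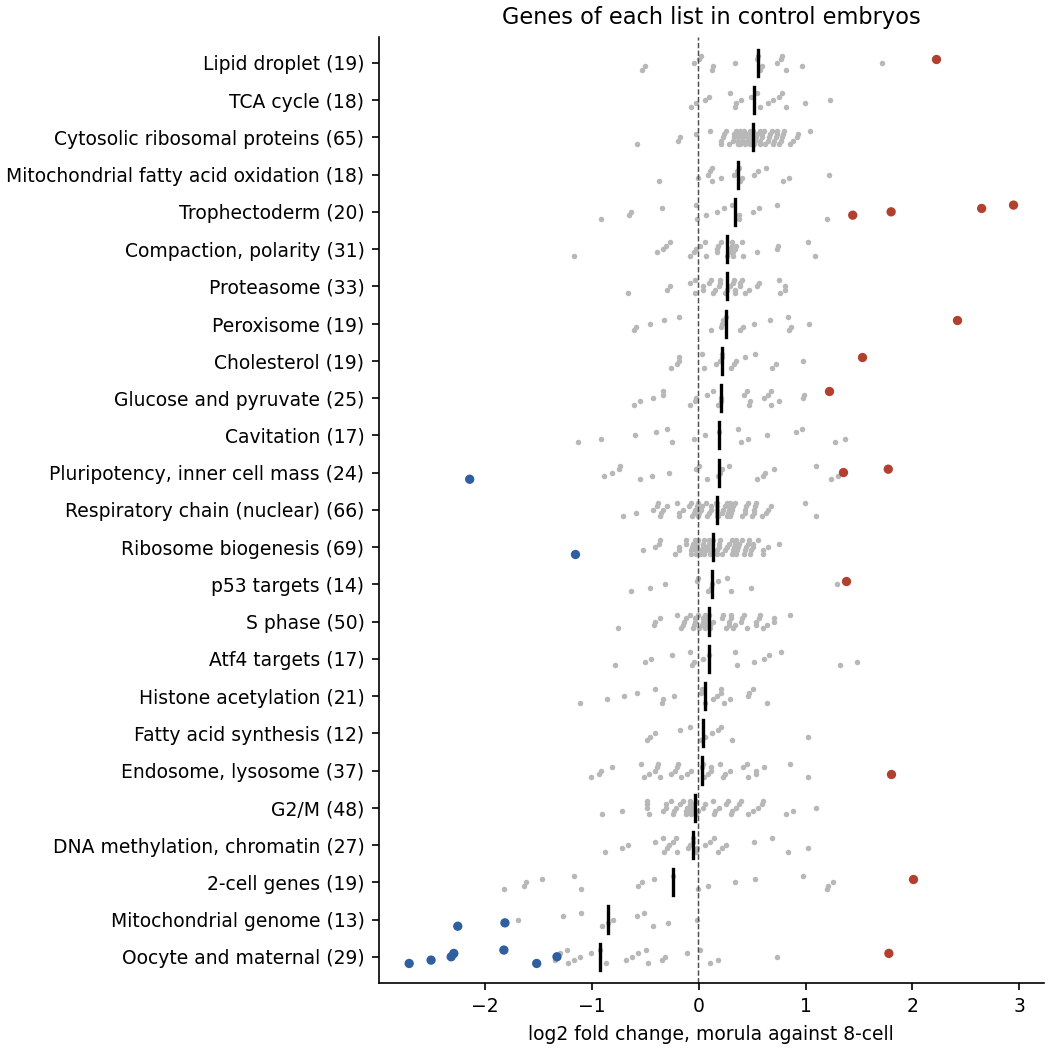
Log2 fold change of morula against 8-cell controls for every tested gene of the 25 lists with at least 10 tested genes (number in brackets), 1 point per gene. Called genes are red (higher) or blue (lower), black bars are list medians in the fit described above and the dashed line is the median of all 8572 genes, and the medians run from -0.93 for oocyte and maternal genes to 0.56 for lipid droplet genes.

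Cytosolic ribosomal protein genes took up a larger share of the morula libraries. They held 6.98% and 7.61% of the fragments of the 8-cell controls and 9.17% and 10.4% of those of the morula controls. Of 65 tested genes 61 had a log2 change above 0, with a median of 0.50, and 31 passed the looser threshold upwards against 0 downwards. None was called by limma-trend. The voom fit called 5, all upwards, against 129 upwards of all 8572 genes. The looser count was 19 upwards with quantile normalization, and without morula replicate 2 it was 7 upwards and 1 downwards. The median stayed above 0 in every alternative run, from 0.35 to 0.59. Ribosome biogenesis genes, 69 tested of 72, had a median of 0.14, with 4 past the looser threshold upwards and 2 downwards. The 1 called was Rrn3, an initiation factor of RNA polymerase I, lower at 108 and 131 against 50.3 and 55.5 (log2 -1.16, SE 0.20, adjusted p = 0.0434), and it stayed called only without 8-cell replicate 1 (highest adjusted p = 0.162 by limma).

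Genes of the mitochondrial genome held a smaller share of the morula libraries. Their summed share, with the ribosomal and transfer RNA genes, was 2.94% and 4.12% in the 8-cell controls and 2.53% and 1.42% in the morula controls. All 13 protein-coding genes had a log2 change below 0, with a median of -0.85. Every exon stretch checked in mt-Co3 and mt-Atp8 also occurs elsewhere in the genome, and reads from such copies could not be separated. Both genes stood under the list's median 8-cell value of 440 FPKM. The 2 called were mt-Co3 and mt-Atp8, an ATP synthase subunit at 25.4 and 46.6 against 9.04 and 9.10 (log2 -1.82, adjusted p = 0.0407, up to 0.116 with 1 library left out, by limma), and 7 passed the looser threshold downwards. The amount differed by library: without 8-cell replicate 2 the median was -0.50 and without morula replicate 2 it was -0.45, with 0 called in both and 4 and 3 past the looser threshold downwards. Nuclear genes of the respiratory chain, 66 tested of 79, had a median of 0.17, none called by limma-trend or voom, and 11 past the looser threshold upwards against 2 downwards. The 11 were 2 without morula replicate 2, 6 without morula replicate 1 and 5 with quantile normalization or FPKM as deposited. The median was 0.04 without 8-cell replicate 1, 0.11 without morula replicate 2 and 0.07 with quantile normalization.

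**Figure D4:**
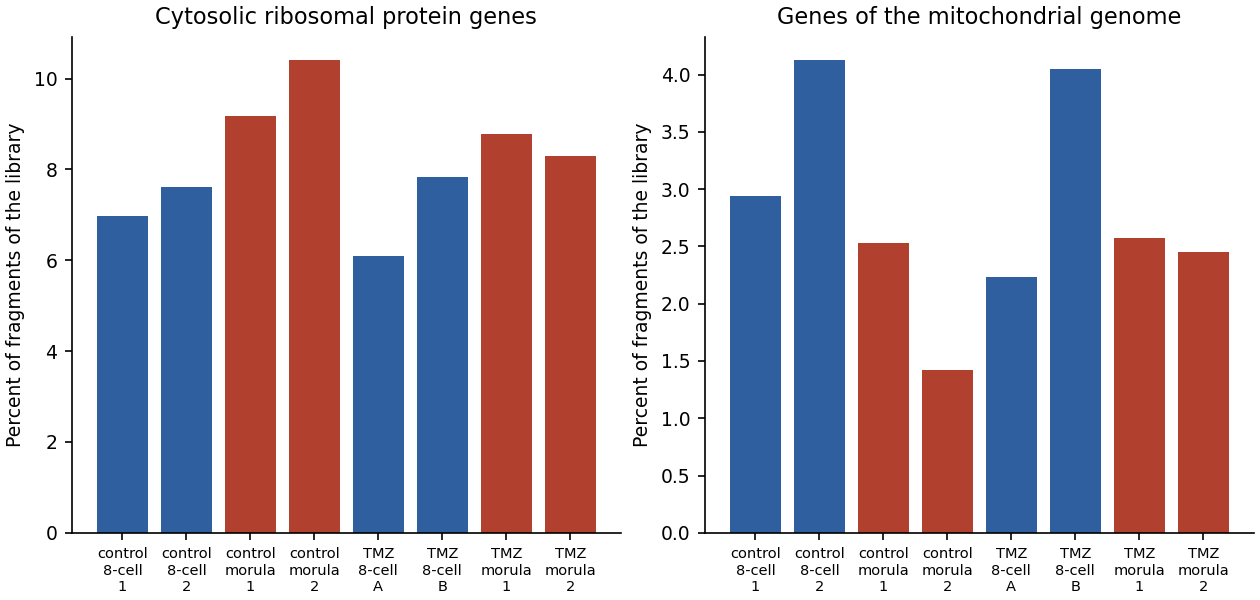
Percent of all counted fragments of each library in cytosolic ribosomal protein genes (left) and in genes of the mitochondrial genome (right), 1 bar per library, blue for 8-cell and red for morula embryos. Ribosomal protein genes run from 6.98% to 7.61% in control 8-cell and from 9.17% to 10.4% in control morula libraries, and the TMZ libraries stand beside them.

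Lists of fuel and lipid genes had few calls, and their counts depended on single libraries. Enzymes of the tricarboxylic acid cycle, 18 tested of 21, had a median of 0.51, with 6 past the looser threshold upwards and 0 downwards, none called by limma-trend and 1 by voom. The 6 were 3 without morula replicate 2 and 10 without 8-cell replicate 1. Genes of glucose and pyruvate use, 25 of 44, had a median of 0.21 with 6 upwards and 0 downwards. For the 5 of them with an entry of exact reference length the median was -0.23, without 8-cell replicate 1 it was 0.54 with 9 upwards and 3 downwards, and 2 passed upwards without morula replicate 2. The 1 called was Pgam1, a phosphoglycerate mutase, at 46.5 and 45.7 against 101 and 117 (log2 1.22, adjusted p = 0.0374), and 85.2% of its 31-base stretches occur elsewhere. Pgam1 was not called with any 1 library left out (adjusted p = 0.0555 to 0.156 by limma). The glucose transporter Slc2a3 had 1.65 and 3.83 against 3.23 and 1.69, and Slc2a1 was not assigned in both tables. Lipid droplet and triglyceride genes, 19 of 37, had a median of 0.56, with 8 upwards and 2 downwards. The median was 0.15 over 27 genes without the filter and 0.23 for the 4 entries of exact length. With any 1 library left out 0 passed downwards, and 4 passed upwards without morula replicate 2 and 5 without 8-cell replicate 2. Fabp5, a fatty acid carrier, was the 1 called, at 3.89 and 5.18 against 24.3 and 25.0 (log2 2.22, SE 0.24, adjusted p = 0.0119), and it stayed called with each library left out. Plin2, a coat protein of lipid droplets, was singled out after its values were seen. It had 4.0 and 2.74 against 9.12 and 18.8 (log2 1.71, SE 0.36, adjusted p = 0.0585), with morula libraries that differed by more than the 8-cell libraries did.

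The study describes TMZ as a long-chain thiolase inhibitor and proposes that early long-chain oxidation may take place mainly in peroxisomes. Mitochondrial β-oxidation had 18 tested genes of 30. None was called by limma-trend or voom, 4 passed the looser threshold upwards and 0 downwards, and 16 had a change above 0, with a median of 0.37. The 4 were 1 without morula replicate 2 and 2 without 8-cell replicate 2, and the median over all 27 joined members without the filter was 0.24. Hadh, the short-chain hydroxyacyl-CoA dehydrogenase, had 13.4 and 8.96 against 22.5 and 31.9 (log2 1.21, SE 0.28, adjusted p = 0.0694). Acaa2, a thiolase of the matrix, had 10.1 and 11.9 against 18.1 and 23.0 (log2 0.84, SE 0.23, adjusted p = 0.0987). Hadha, the first subunit of the trifunctional protein, had 2.26 and 1.11 against 3.59 and 3.48 (log2 0.79). In these 3 the stages did not overlap, as in 55.4% of all genes tested. Hadhb, the subunit with the long-chain thiolase, had 19.5 and 17.9 against 22.3 and 21.3 (log2 0.21, SE 0.21). Acadl, a long-chain dehydrogenase, was the most abundant gene named here from this pathway, at 123 and 74.6 against 138 and 136 (log2 0.51, SE 0.26), and Echs1, a hydratase, had 3.46 and 3.32 against 3.80 and 5.76. The carnitine palmitoyltransferases that bring long chains into the matrix were low: Cpt1a stood at 0.698 to 0.876 and Cpt2 at 0.21 to 1.35 over the 4 libraries, both under the filter. Acsl5, an acyl-CoA synthetase, stood at 0 to 0.080, and Cpt1b was not assigned in both tables.

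Related lipid lists had small medians, and the counts of the peroxisomal list depended on the setting. With FPKM as deposited 6 of its genes passed the looser threshold upwards and 3 downwards, and at 5 FPKM or more 2 and 3. Scaling by the sum gave 6 and 2. Peroxisomal genes, 19 tested of 37, had a median of 0.26 with 6 upwards, 0 downwards and 1 called, Cat, and 3 upwards without 8-cell replicate 1 or morula replicate 2. Cholesterol genes, 19 of 28, had a median of 0.22 with 5 upwards, 0 downwards and 1 called, Stard4, a sterol carrier, at 8.24 and 9.87 against 28.9 and 27.0 (log2 1.53, adjusted p = 0.0296). Stard4 was not called with any 1 library left out (adjusted p = 0.0502 to 0.104 by limma). The cholesterol median was 0.03 without 8-cell replicate 2 and 0.39 and 0.38 without 8-cell or morula replicate 1, and the upward count was 1 without morula replicate 2, 3 without 8-cell replicate 2 or morula replicate 1 and 2 with FPKM as deposited. Fatty acid synthesis genes, 12 of 28, had a median of 0.04, with 1 upwards and none called by either fit, and the sign of its median turned with FPKM as deposited (-0.02).

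The remaining lists had medians between -0.06 and 0.26, and most of their counts and medians moved with single libraries. S phase genes (50 tested of 59, median 0.10) had 7 past the looser threshold upwards (14%) and 1 downwards (2%). The shares of all genes tested were 11.1% and 12.3%. The 7 were 1 without morula replicate 2 and 2 without morula replicate 1 or 8-cell replicate 2, and the median was 0.05 without morula replicate 1 and 0.22 without morula replicate 2. The replicative helicase subunit Mcm4 had 15.1 and 15.5 against 20.4 and 17.8 (log2 0.30, SE 0.21). Mitosis genes (48 of 52, median -0.04) had 5 and 2. Proteasome subunits (33 of 37, median 0.26) had 5 and 0, with 2 upwards without either morula. Targets of Atf4 (17 of 30, median 0.09) had 5 and 1, with 2 upwards without 8-cell replicate 2 or morula replicate 2, and their median was -0.04 at a posterior of at least 0.99. Writers and erasers of histone acetylation and acetyl-CoA makers (21 of 29, median 0.06) had 0 upwards and 4 downwards, against 0 downwards without morula replicate 2, 2 without 8-cell replicate 2, and 4 upwards without 8-cell replicate 1. None of these 5 lists had a called gene by limma-trend or voom. DNA methylation and chromatin regulators (27 of 31, median -0.06) had 3 each way and 0 called, with 1 by voom. Endosomal and lysosomal genes (37 of 45, median 0.03) had 3 upwards and 4 downwards, and the called one was Dab2. Targets of p53 (14 of 24, median 0.12) had 2 and 1. Perp, a desmosomal target of p53, was called at 22.0 and 23.9 against 59.8 and 62.7 (log2 1.38, adjusted p = 0.0296, up to 0.121 with 1 library left out). With FPKM as deposited the medians of the endosomal and acetylation lists turned to -0.04 and -0.02, and leaving out 1 library turned the sign of 4 medians. That of endosomal genes was -0.05 without 8-cell replicate 1 and -0.16 without morula replicate 2, and that of acetylation genes -0.06 without morula replicate 2. That of mitosis genes was 0.10 without morula replicate 2, and that of p53 targets -0.17 without 8-cell replicate 2. Among the acetylation genes past the looser threshold, and named after their values were seen, were the deacetylase Sirt1 and the acetyltransferases Crebbp and Ep300. Sirt1 had 10.7 and 13.8 against 6.74 and 3.80 (log2 -1.11, adjusted p = 0.0934), and Crebbp had 7.88 and 8.49 against 5.69 and 3.78 (log2 -0.70, adjusted p = 0.172).

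The difference between the same labelled stages was also read in the 4 TMZ libraries, which the calls did not use. Of the 173 called genes 146 (84.4%) had a change of the same sign in TMZ embryos, against 68.2% of all genes tested, and 105 (60.7%) did so with no overlap between the TMZ stages, against 37.6% of all. The 81 called risers had a median log2 change of 1.63 in controls and 1.01 in TMZ embryos, and the 92 fallers -1.51 and -0.52. The genes were chosen for a large change in controls, so a smaller value in other samples follows in part from the choice. Whether the delay that the study reports under TMZ also enters was not tested. Krt18 stood at 15.1 and 8.11 in TMZ 8-cell libraries A and B and at 40.3 and 46.8 in TMZ morulae, and Akr1b8 at 9.89 and 12.8 and then at 91.0 and 77.2. Both were higher in each TMZ morula than in either TMZ 8-cell library. Btg4 stood at 1.83 and 2.11 in TMZ 8-cell embryos and at 2.95 and 1.17 in TMZ morulae, so its TMZ stages overlapped.

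The difference between the stage change with TMZ and without it was tested gene by gene as an interaction over all 8 libraries. No gene was called by limma-trend (0 of 8572, 0%, smallest adjusted p = 0.366), and 611 (7.13%) had an unadjusted p under 0.05. Among the genes named here Btg4 had the smallest unadjusted interaction p, 0.000742 in the limma fit, with a log2 change of -2.29 in controls and -0.01 in TMZ embryos. For Rhox13 they were 2.42 and -0.72 (unadjusted p = 0.00612 in the limma fit). For Fabp5 the changes were 2.22 and 1.01 (unadjusted p = 0.00750), for Pgam1 1.22 and 0.20 (unadjusted p = 0.0111), and for mt-Atp8 -1.82 and 0.37 (unadjusted p = 0.00808) in the same limma fit. None of these passed adjustment. The β-oxidation list had a median of 0.37 in controls and 0.38 in TMZ embryos, and the oocyte and maternal list -0.93 and -0.31.

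**Figure D5:**
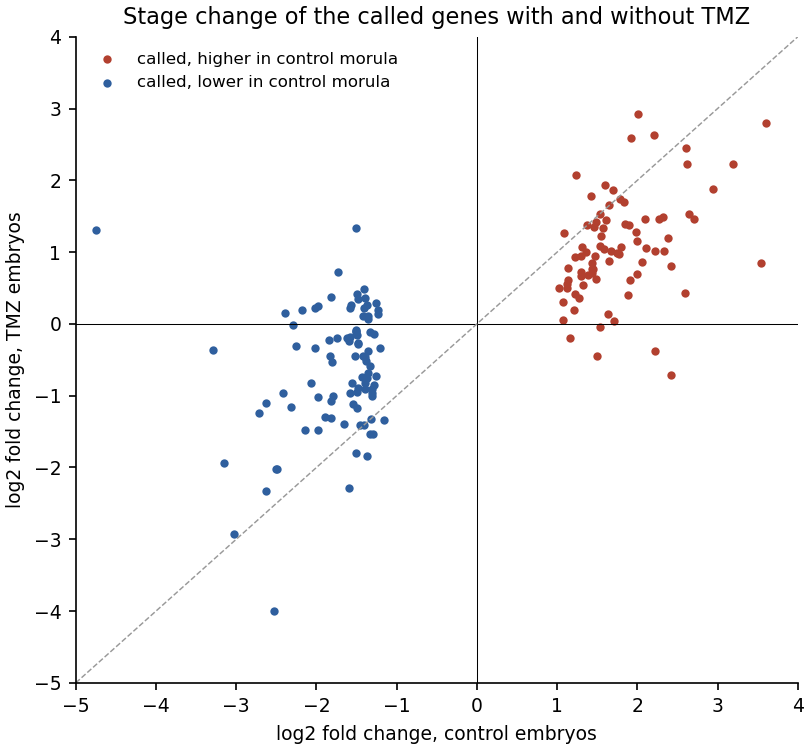
Log2 fold change of morula against 8-cell in TMZ embryos (vertical axis) against control embryos (horizontal axis) for the 173 genes called in controls, red for risers and blue for fallers, with a dashed line of equality. Of these genes 146 lie on the same side of 0 in both, and the genes were chosen on the horizontal axis.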

How the data were processed

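RNA was amplified as full-length cDNA with a Vazyme kit and made into libraries with TruePrep, 2 libraries for each of 4 groups per the labels, although the study's methods name more replicates. The deposited FPKM values were made by the authors with fastp 0.23.4, STAR 2.7.9a on GRCm39 and featureCounts 2.0.6, per the submitters' processing notes. The annotation release and the use of strand are not given in the sources used here, so overlapping and antisense genes may share reads. Each stage has its own table, without gene names.

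Library totals and exon lengths were recovered from the steps between low FPKM values, since fragments come in whole numbers. Entries were then aligned to GENCODE vM39 genes in the order of Ensembl identifiers with a pair hidden Markov model (Python 3.11.15, numpy 2.4.6, pandas 2.3.3), and those with a posterior of at least 0.95 were kept: 26165 of 31899 entries in the 8-cell table and 23304 of 29202 in the morula table, giving 20577 joined genes after 24 with incompatible lengths were left out. All 65 joined genes of cytosolic ribosomal proteins reached a mean of 1 FPKM, as did 3 of 104 olfactory receptors. The entries named Gapdh (scaled FPKM 0.957 to 3.04) and Tuba1b (2.48 to 8.44) were low for genes of this kind, and the cause was not tested.

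Genes averaging 1 FPKM or more in the 4 control libraries were scaled by median ratios and fitted as log2(FPKM + 1), a scale that understates changes of low genes, with limma 3.58.1 in R 4.3.3 (trend, 2 against 2 libraries, Benjamini-Hochberg over all 8572 genes). The looser threshold is the study's own. The interaction with TMZ used all 8 libraries. The 2 TMZ 8-cell columns share one header and are called A and B. The members, the 26 gene lists and the tests were chosen with earlier results of these data known. Named genes are the 8 largest rises and 8 largest falls among called protein-coding genes with a name, no overlap and 5 FPKM in the higher stage, up to 4 called genes per list, and a set of key genes. Alternatives covered scaling, pseudocount, filter, assignment, voom on recovered fragments, trend, the libraries in the fit, the replicate number as a block and each library left out. Whether equal replicate numbers pair libraries of the 2 stages is not known. The correlation of their deviations was 0.0716, which cannot decide this with 2 libraries per stage. Shared sequence was read as the share of a gene's 31-base exon stretches found elsewhere in GRCm39. The assignment and the fit were tested on simulated data.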

Additional observations from a re-analysis of the deposited data

How the results depend on the processing

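Called genes kept their direction in every alternative that tested them, and their number depended on the setting. The direction was nearly fixed in advance, since the stages did not overlap in these genes and each log2 change was at least 1.02 in size. Against 81 higher and 92 lower, 96 and 154 were called with FPKM as deposited, 171 and 251 after scaling by the sum, 59 and 59 with a pseudocount of 0.1, 46 and 36 among entries of exact reference length, 129 and 97 by voom, and 23 and 11 with all 8 libraries in the limma fit. Without a filter on low values 0 and 0 were called by limma, with 1087 and 1011 past the looser threshold. The looser counts, 955 and 1052, were 519 and 622 for genes of at least 5 FPKM and 390 and 401 for entries of exact length. The replicate block gave 269 and 292 calls, but whether equal replicate numbers pair these libraries is not stated in the sources used here. No such block could be run for the interaction, since the TMZ 8-cell columns carry no distinct numbers. With 1 control library left out, which also leaves a stage with a lone library assumed to vary like the other stage, 30 to 67 genes were called higher and 18 to 111 lower, and 524 to 1015 and 655 to 1180 passed the looser threshold. For the interaction 0 to 8 genes were called (8 without TMZ 8-cell A, 3 without B and 1 without control 8-cell replicate 2) and 338 to 1193 had an unadjusted p under 0.05, against 611 with all libraries and 268 at 5 FPKM or more. Of 27 called genes named by the rule, 13 were called in all 4 fits with a control library left out, and 8 with all 8 libraries in the fit. Genes near 0 changed sign with 1 library left out: Nanog ran from -0.056 to 0.62, Cripto from -0.064 to 0.44, Dppa3 from -0.33 to 0.32 and Slc2a3 from -0.51 to 0.35 in log2, and Dppa3 was at 0.0325 without a filter and at 0.0023 by voom. The cause was not tested beyond the fewer libraries or genes that these settings use.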

Other observations

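The genes below were singled out after their values were seen, from the genes called by limma-trend. Eef1a1, the elongation factor that brings aminoacyl-tRNA to the ribosome, stood at 424 and 470 FPKM at the 8-cell stage and at 858 and 958 at the morula stage (log2 fold change 1.02). Eef1g, a subunit of its exchange factor, stood at 160 and 172 against 346 and 386 (log2 1.14), and the chaperone Hsp90aa1 at 570 and 592 against 1263 and 1196 (log2 1.08). Fbp2, a fructose bisphosphatase, stood at 193 and 276 against 651 and 646 (log2 1.49). In each of these 4 genes the 2 libraries of a stage lay closer to each other than to those of the other stage. All called genes, from which they were picked, had stages without overlap. Fgf3, a fibroblast growth factor, stood at 5.09 and 6.10 against 0.887 and 1.69, and Spry2, an inhibitor of that pathway, at 86.8 and 119 against 43.4 and 31.4, while its TMZ 8-cell libraries stood at 384 and 89.9. Igf2r, the receptor that clears Igf2, stood at 17.5 and 27.9 against 6.55 and 7.79. Gdf3, a ligand of the TGF-β family, was higher, at 6.12 and 5.96 against 18.6 and 25.6.

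Classes of genes differed in the direction of changes past the looser threshold. Protein-coding genes, 6832 tested, had 791 past the looser threshold upwards and 580 downwards, with 52 called higher and 38 lower by limma-trend. Processed pseudogenes, 951 tested, had 91 upwards and 295 downwards with a median log2 change of -0.38. Their calls did not lean downwards, with 19 higher and 18 lower. Long noncoding genes, 378 tested, had 34 and 76, with 5 called higher and 11 lower. Of 18 tested transfer RNA genes of the mitochondrial genome 12 were called lower and 0 higher by limma-trend, and 15 and 0 passed the looser threshold. One of them, mt-Tm, stood at 596 and 620 in 8-cell controls, 147 and 362 in TMZ 8-cell embryos, 57.1 and 79.4 in control morulae and 54.7 and 63.6 in TMZ morulae. Genes of the X chromosome, 322 tested, had 19 past the looser threshold upwards and 69 downwards (median -0.26), against 934 and 961 of 8213 autosomal genes (median 0.01). The largest fall of all was in the predicted gene Gm9376, from 96.9 and 175 to 3.95 and 3.86, while its TMZ libraries stood at 66.7 and 3.42 at the 8-cell stage and at 35.9 and 48.7 at the morula stage. The differences between these classes were not tested.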
